A study of Homo sapiens with 58 samples.

Results

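Kinesins are motor proteins that walk along microtubules. All gene symbols of the array annotation that consist of KIF, a number and an optional letter were taken, which gave 38 genes of the 19798 with a probe set of their own. Of these, 12 were grouped as mitotic kinesins, 13 as transport kinesins and 13 as other kinesins. The genes were measured in 58 untreated human cell lines, all of which the labels call breast cancer. Each line was hybridised to 1 array, so no line has a replicate and the spread between lines is the only error available. The labels give no subtype. MT3 and the set of MDAMB435S, M4A4 and NM2C5 have been reported to stem from other tumours, and this may hold for further lines. The series also holds immortalised mammary epithelial lines, which the labels do not set apart from the cancer lines. Lines of 6 sets with a common origin were averaged before testing, which left 50 units.

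Kinesins convert ATP hydrolysis into movement or into the disassembly of microtubule ends. In dividing cells, the mitotic members separate the spindle poles, align the chromosomes and build the midzone at which the daughter cells part. The transport members carry vesicles, mitochondria and protein complexes towards the plus ends of microtubules, above all in neurons and cilia. MKI67 encodes the Ki-67 antigen of cycling cells, which is used in breast pathology as a measure of proliferation.

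Mitotic genes often carry a CHR element in their promoter, with the core letters TTTGAA, together with CCAAT boxes, which are bound by the factor NF-Y. The 120 bases before the annotated start of 5 mitotic kinesins are shown because they hold the TTTGAA letters before the start, and those of 2 transport kinesins because they hold neither motif. The choice thus followed the motifs, and the counts over all members are given after them. They are taken from RefSeq promoter windows of the build GRCh38.p14 and are read in the direction of the gene. Capitals mark TTTGAA and CCAAT on either strand, so that TTCAAA and ATTGG are the same motifs on the opposite strand.
KIF11, chr10:92593010-92593129, plus strand: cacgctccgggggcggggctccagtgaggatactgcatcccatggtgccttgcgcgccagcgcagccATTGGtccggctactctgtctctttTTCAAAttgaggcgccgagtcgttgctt
KIF15, chr3:44761674-44761793, plus strand: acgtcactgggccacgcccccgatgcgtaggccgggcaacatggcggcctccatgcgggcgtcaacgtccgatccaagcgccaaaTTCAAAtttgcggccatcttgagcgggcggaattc
KIF18A, chr11:28108157-28108276, minus strand: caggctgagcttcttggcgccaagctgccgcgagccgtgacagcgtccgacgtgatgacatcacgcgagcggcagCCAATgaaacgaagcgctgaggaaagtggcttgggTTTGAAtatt
KIF23, chr15:69414229-69414348, plus strand: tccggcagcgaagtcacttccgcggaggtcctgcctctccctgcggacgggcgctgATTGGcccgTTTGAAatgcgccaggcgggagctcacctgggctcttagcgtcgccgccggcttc
KIF4A, chrX:70289984-70290103, plus strand: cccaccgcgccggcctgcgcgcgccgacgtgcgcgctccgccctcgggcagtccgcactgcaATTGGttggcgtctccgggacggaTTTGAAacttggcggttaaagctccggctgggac
KIF3C, chr2:25982498-25982617, minus strand: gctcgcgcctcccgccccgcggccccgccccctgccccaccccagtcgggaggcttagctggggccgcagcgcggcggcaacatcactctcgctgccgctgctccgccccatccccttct
KIF16B, chr20:16573449-16573568, minus strand: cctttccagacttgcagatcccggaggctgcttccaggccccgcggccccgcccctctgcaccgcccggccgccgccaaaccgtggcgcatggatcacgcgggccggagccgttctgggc

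In KIF11 the CCAAT letters began at -53 and the TTTGAA letters at -28 relative to the annotated start. In KIF4A they began at -58 and -34, in KIF18A at -45 and -10, and in KIF23 at -64 and -55. KIF15 had TTTGAA at -35 and no CCAAT, and the windows of KIF3C and KIF16B held neither. Windows of 300 bases, with 250 before and 50 after the start, were searched for 32 of the 38 members. None was found for KIF5A, KIF19, KIF21B, KIF26B and KIF27. Kinesin windows on chromosome 8 were left out of the search, so the transport member KIF13B, which lies there, was not counted. That chromosome was not left out of the count over all promoters. TTTGAA stood in 8 of 12 mitotic windows (66.7%), in 1 of 11 transport windows (9.09%, KIF5B) and in 0 of 9 other windows, against 18.2% of all 27305 promoters. In the 250 bases before the start alone it stood in 5 of 12 mitotic windows (41.7%), against 16.1% of all promoters. CCAAT stood in 9 of 12 mitotic (75.0%), 4 of 11 transport (36.4%) and 3 of 9 other windows (33.3%), against 39.7% of all promoters. Both motifs stood in 7 of 12 mitotic windows (58.3%), against 7.26% of all promoters. In the kinesin windows no match overlapped another. A match is a run of letters and not evidence that a factor binds there.

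All values are on the log2 scale of the authors' RMA intensities, so that 1 unit is a 2-fold difference. A probe set responds to its own transcript with its own efficiency, so levels are compared between lines and not between genes. Array medians lay between 5.37 and 5.58. Detection required a level over the median of the array in 3 or more of the 50 units. How far an array departs from the others was measured by its width, the interquartile range of its relative log expression, which lay between 0.45 and 0.64. HS362T, MB157 and EFM192A were the widest. Since these are bulk extracts, fewer cells of a type and less RNA per cell cannot be told apart.

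Of the 38 kinesins, 34 were detected, with 11 mitotic, 12 transport and 11 other members among them. The mitotic KIF2B, the ciliary and dendritic motor KIF17, the ciliary depolymerase KIF19 and the KIF7 relative KIF27 were not detected in 3 units and were not tested. KIF2B and KIF27 were above the array median in 0 lines. KIF17 passed it in 1 line, MDAMB157, at 5.77, against a median of 4.82. Of the 38 kinesins, 21 were above the array median in all 58 lines, comprising 10 mitotic, 7 transport and 4 other members. No probe set named KIF4B, a near-identical copy of KIF4A, so the KIF4A signal may include it.

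**Figure D1:**
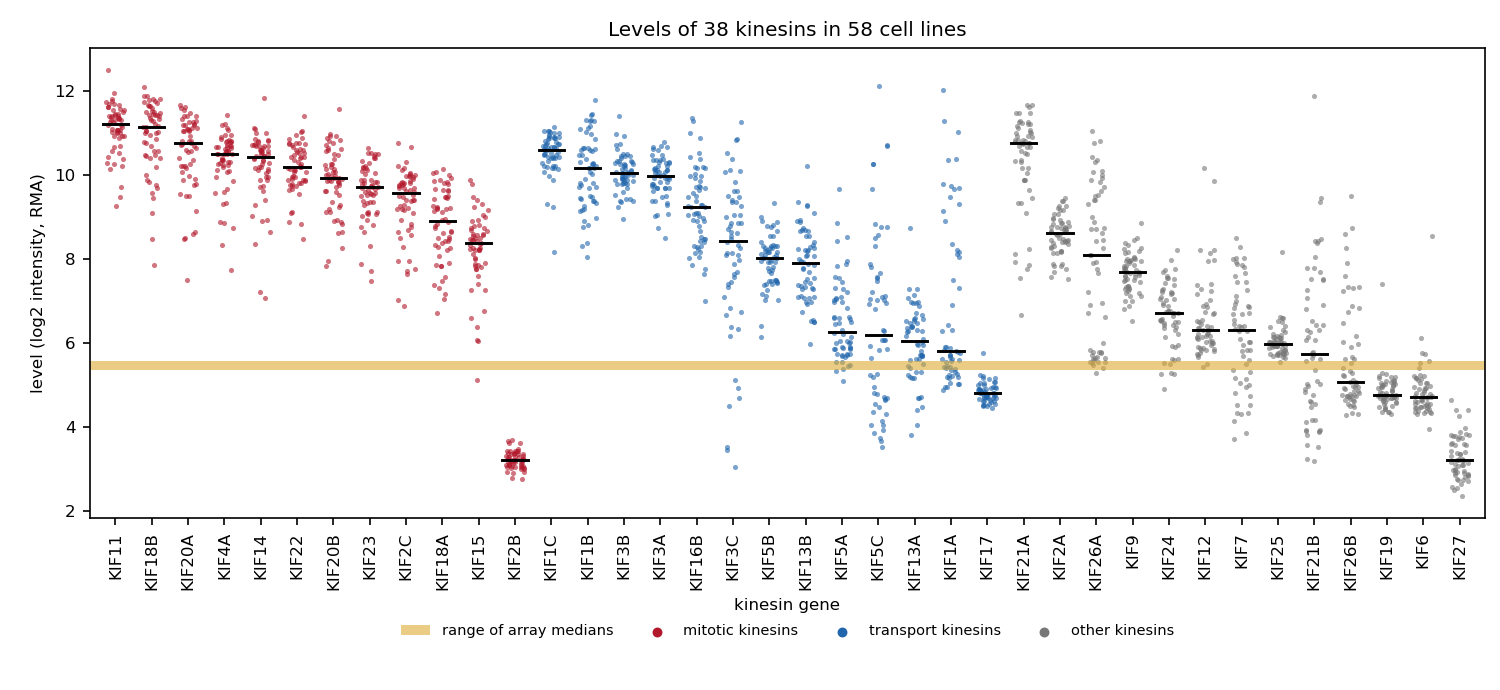
Level of each of the 38 kinesins (log2 intensity) in each of 58 cell lines, with a point for each line, a bar at the median and a band for the range of array medians, 5.37 to 5.58. The mitotic kinesins other than KIF2B lie above the band in nearly every line, while KIF1A, KIF3C, KIF5C, KIF21B and KIF26A spread over more than 5 log2 units.

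The mitotic kinesins varied by similar amounts, with a group median above the median of all genes but without the largest spreads. Their SD over the 58 lines had a median of 0.84, against 0.725 for all 14850 genes detected in the lines. KIF22, KIF11, KIF23 and KIF4A were below 0.725, with 0.581, 0.601, 0.694 and 0.718. Over the 50 units the group median was 0.721, against 0.705 for all detected genes. Over the 58 lines, 11 of the 11 mitotic members reached an SD of 0.5 and 0 an SD of 1, against 72.9% and 34.6% of all genes. The transport kinesins had a median SD of 0.88 with 3 of 12 at or above 1, and the other kinesins 0.95 with 5 of 11 (45.5%). Among the transport kinesins, the 3 members with an SD above 1 were all above 1.5, since KIF5C had 2.07, KIF1A 1.98 and KIF3C 1.88. Of the remaining 9, KIF5A, KIF16B, KIF13A, KIF1B and KIF13B had SDs from 0.86 to 0.96, above the median of all genes, and KIF5B, KIF1C, KIF3A and KIF3B had SDs from 0.45 to 0.62, below it.

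The 5 mitotic members with the largest SD were KIF20A, KIF15, KIF18B, KIF18A and KIF14. KIF20A, which brings the chromosomal passenger complex to the midzone, was lowest in VP229 at 7.51, had a median of 10.77 and was highest in HMT3522S1 at 11.67. KIF15, which holds spindle poles apart together with KIF11, was lowest in EFM192A at 5.13, had a median of 8.38 and was highest in FR2 at 9.89. EFM192A was the single line in which KIF15 was not above the array median. KIF18B, which shortens astral microtubules, was lowest in EFM192A at 7.87, had a median of 11.16 and was highest in FR2 at 12.10. KIF18A, which dampens chromosome movements at the metaphase plate, ran from 6.72 in EFM192A over a median of 8.92 to 10.14 in SW527. KIF14, a partner of citron kinase in cytokinesis, ran from 7.08 in EFM192A over a median of 10.43 to 11.83 in DU4475. The low ends of these genes were thus set by EFM192A and VP229.

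The remaining mitotic members had the same extremes in large part. KIF11, the motor that pushes spindle poles apart, ran from 9.26 in EFM192A over a median of 11.23 to 12.51 in FR2. KIF23, the motor of the centralspindlin complex, ran from 7.49 in EFM192A to 10.65 in HCC1143. KIF20B, a cytokinesis motor, ran from 7.84 in EFM192A to 11.57 in FR2. KIF2C, a depolymerase that corrects attachments at kinetochores, ran from 6.89 in VP229 to 10.76 in FR2, and the chromosome-bound motor KIF4A from 7.75 in VP229 to 11.43 in FR2. KIF22, also bound to chromosome arms, had its extremes elsewhere, with 8.49 in HS362T and 11.40 in MDAMB453. FR2 was the highest line for 6 of the 11 detected mitotic members.

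The mean distance of the 11 detected mitotic kinesins from their medians ranged from -2.37 in EFM192A and -2.26 in VP229 to 0.98 in FR2, with an SD of 0.68 over lines. The next lowest lines were HS362T at -1.57, UACC893 at -1.52, HS739T at -1.32 and HS605T at -1.30. The same measure over the 12 transport kinesins had an SD of 0.34, with -0.75 in EVSAT and 0.98 in HCC1143 at its ends. The lowest mitotic lines included 2 of the 3 widest arrays, with a width of 0.63 in EFM192A and 0.64 in HS362T, and VP229 had 0.62. HS605T, HS739T and HS362T had the fibroblast markers COL1A1, COL1A2, COL3A1, PDGFRA, LUM and POSTN at a mean of 8.89, 8.79 and 8.58 above their medians over lines. HS579MG and HS578T had means as high, 8.82 and 8.76, with mitotic kinesins at -0.03 and 0.20. In the low lines EFM192A, UACC893 and VP229 the marker mean was 2.92, -0.16 and -0.56. FR2, at the high end, had 6.55 and an array width of 0.48.

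**Figure D2:**
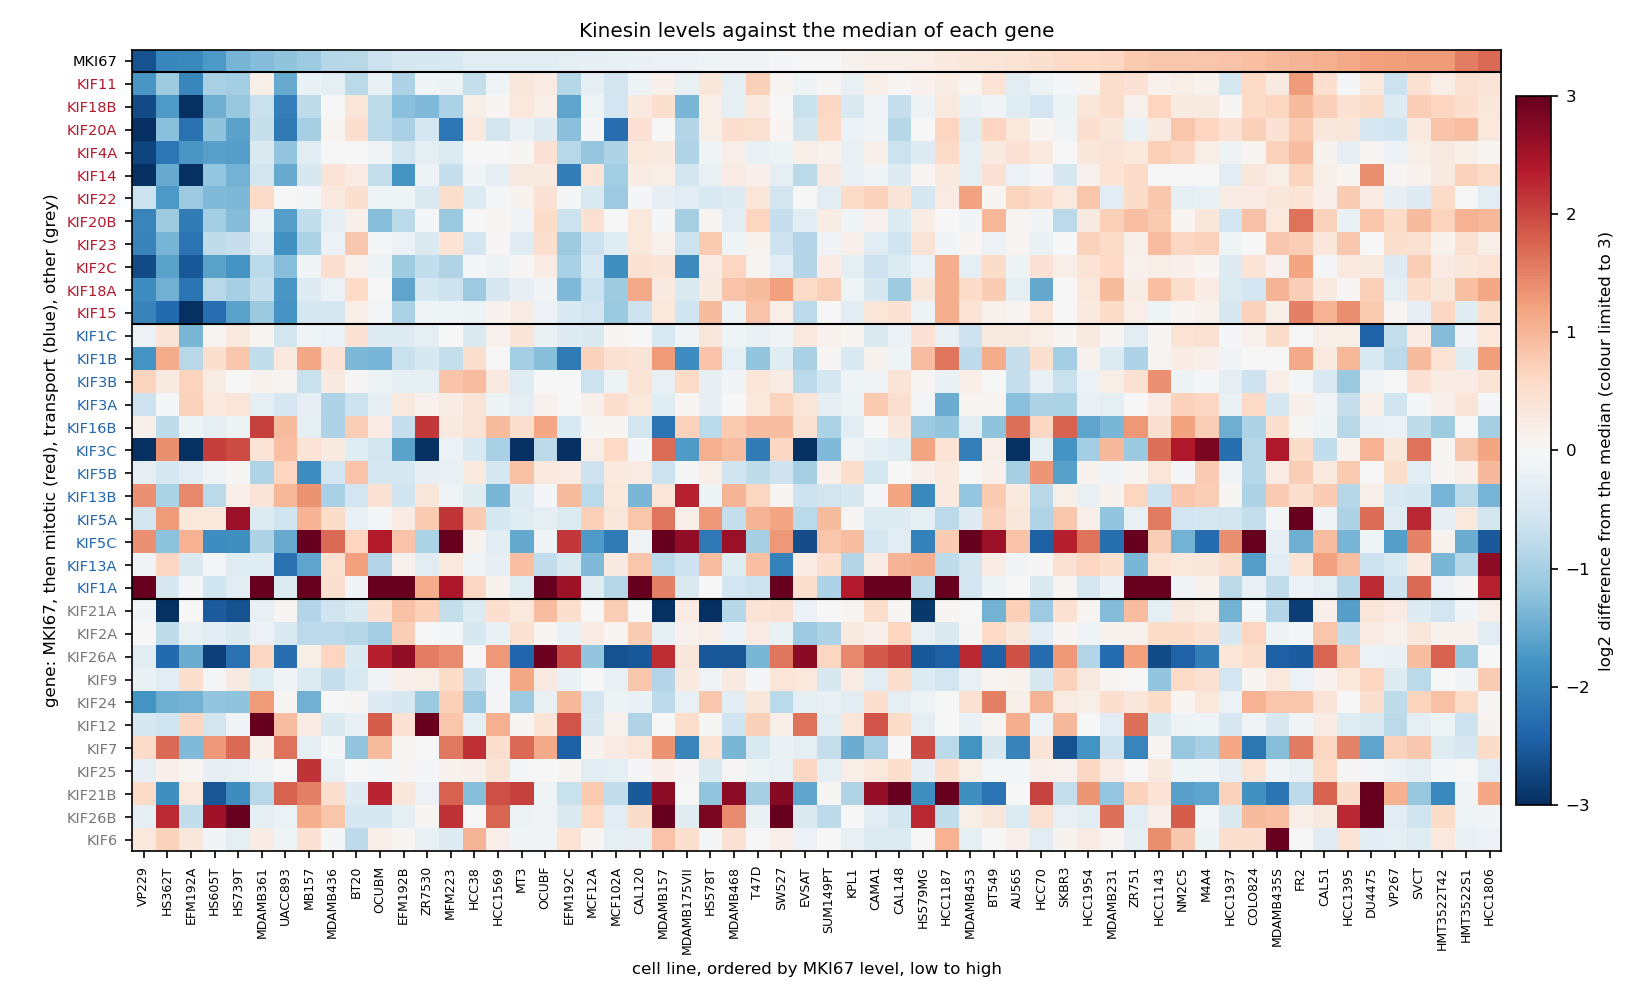
Log2 difference of MKI67 and of the 34 detected kinesins from each gene's median over 58 lines, with colours limited to 3 units and the lines ordered by MKI67 from low to high. The red-labelled mitotic rows share their low columns at the left, among them VP229 and EFM192A, while the rows of KIF3C, KIF5C, KIF1A, KIF21B and KIF26A change from line to line.

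The mitotic kinesins rose with MKI67, and the transport kinesins did not pass the test. MKI67 itself was lowest in VP229 at 7.48, had a median of 10.08 and was highest in HCC1806 at 11.77. Each gene was regressed on MKI67 over the 50 units with limma, and p-values were adjusted by the Benjamini-Hochberg method over all 14650 genes tested. A slope is the log2 change of a gene per log2 unit of MKI67. In that fit 11 of 11 tested mitotic kinesins rose with MKI67, where 4.29% of all genes tested had a called positive slope. Their median slope was 0.56, from 0.35 to 0.76, against 0.01 for all genes tested. Of the transport kinesins 0 of 12 were called, with a median slope of 0.01 and a range from -0.28 to 0.23, and 0 had an unadjusted p under 0.05 in limma. Over all genes 5.83% were called in either direction, so a count of 0 of 12 is near the background. The transport slopes differed in precision. Their SEs ran from 0.08 for KIF3B (slope -0.06) to 0.36 for KIF5C (slope 0.23), and those of KIF1A and KIF3C were 0.34 and 0.28.

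The 6 mitotic kinesins with the smallest adjusted p were KIF15, KIF18B, KIF20B, KIF11, KIF4A and KIF14. KIF15 had the steepest slope of the tested kinesins, 0.76 ± 0.10 (SE, adjusted p = 4.3e-06 in limma). The slope was 0.67 ± 0.09 for KIF18B (SE, adjusted p = 5.61e-06) and 0.63 ± 0.09 for KIF20B (SE, adjusted p = 6.52e-06). KIF11 had 0.46 ± 0.07 (SE, adjusted p = 1.59e-05), KIF4A 0.54 ± 0.08 (SE, adjusted p = 2.02e-05) and KIF14 0.56 ± 0.09 (SE, adjusted p = 3.24e-05). A unit with 1 log2 unit more MKI67 thus had, on average, 0.46 to 0.76 log2 units more of these 6 motors. The called slopes of KIF20A, KIF2C, KIF18A and KIF23 were 0.63, 0.60, 0.55 and 0.45. KIF22 had the shallowest, 0.35 ± 0.09 (SE, adjusted p = 0.0129), and lost its call without HS362T (424 genes called in all), without HS605T (488 genes) and in other settings, with 0.14 and an adjusted p of 0.476 without the 4 lines HS362T, HS579MG, HS605T and HS739T. Without those 4 lines 9 of 11 mitotic kinesins stayed called while the count over all genes fell to 126, and KIF18A had an adjusted p of 0.0593. With array width as a term 11 of 11 mitotic kinesins were called (360 genes in all), and without the 3 widest arrays 10 of 11 were (381 genes in all), with KIF22 at an adjusted p of 0.128.

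Among the other kinesins 1 of 11 rose with MKI67. This was KIF24, a kinesin of the mother centriole that restrains cilium formation, with a slope of 0.47 ± 0.10 (SE, adjusted p = 0.00248 in limma). KIF24 was lowest in VP229 at 4.92, had a median of 6.72 and was highest in BT549 at 8.22. Its call was lost without the 4 lines named above (adjusted p = 0.147) and with TOP2A in place of MKI67 (adjusted p = 0.157). The depolymerase KIF2A had a slope of 0.21 (adjusted p = 0.105), and KIF7, which relays Hedgehog signals at the cilium tip, -0.45 (adjusted p = 0.2). Neither passed the test.

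**Figure D3:**
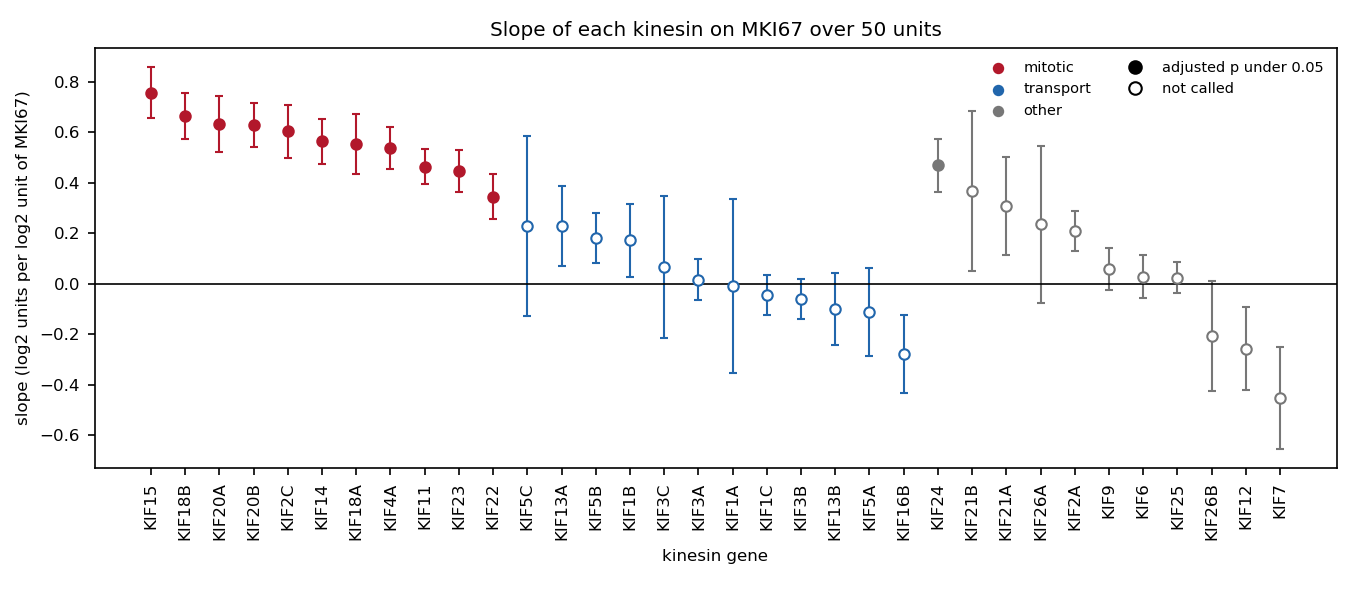
Slope of each of the 34 tested kinesins on MKI67 over 50 units (log2 units per log2 unit of MKI67), with bars of 1 SE and filled points for an adjusted p under 0.05 in limma. The 11 mitotic slopes, from 0.35 for KIF22 to 0.76 for KIF15, and that of KIF24 are filled, and the 12 transport slopes lie between -0.28 and 0.23 and are open.

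Partner genes were counted in the same fit. Of the spindle and cytokinesis partners 19 of 19 rose with MKI67, with a median slope of 0.47. The smallest adjusted p-values were those of TPX2, a spindle assembly factor (0.47 ± 0.07, adjusted p = 8.28e-06 in limma), the checkpoint kinase BUB1B (0.53 ± 0.08, adjusted p = 1.59e-05) and cyclin B1, CCNB1 (0.45 ± 0.07, adjusted p = 1.83e-05), with errors as SE. Of 5 kinesins whose symbols fall outside the naming rule, 2 rose. They were KIFC1, a minus-end motor that focuses spindle poles (0.67 ± 0.10, SE, adjusted p = 1.83e-05), and CENPE, a kinetochore motor (0.59 ± 0.09, SE, adjusted p = 3.11e-05). KIFC2, KIFC3 and STARD9 were not called. Of the cargo partners of kinesins, such as the kinesin light chains and mitochondrial adaptors, 0 of 16 were called, as were 0 of 8 genes of dynein and dynactin, the motor complex of the opposite direction. With 5.83% of all genes called in either direction, counts of 0 in lists of this size are near the background. Of 12 genes of intraflagellar transport, which kinesin-2 drives in cilia, 1 fell, IFT20 (-0.27 ± 0.09, SE, adjusted p = 0.0459), where 1.54% of all genes tested had a called negative slope. Of the 6 fibroblast markers 0 were called, with a median slope of -0.81.

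**Figure D4:**
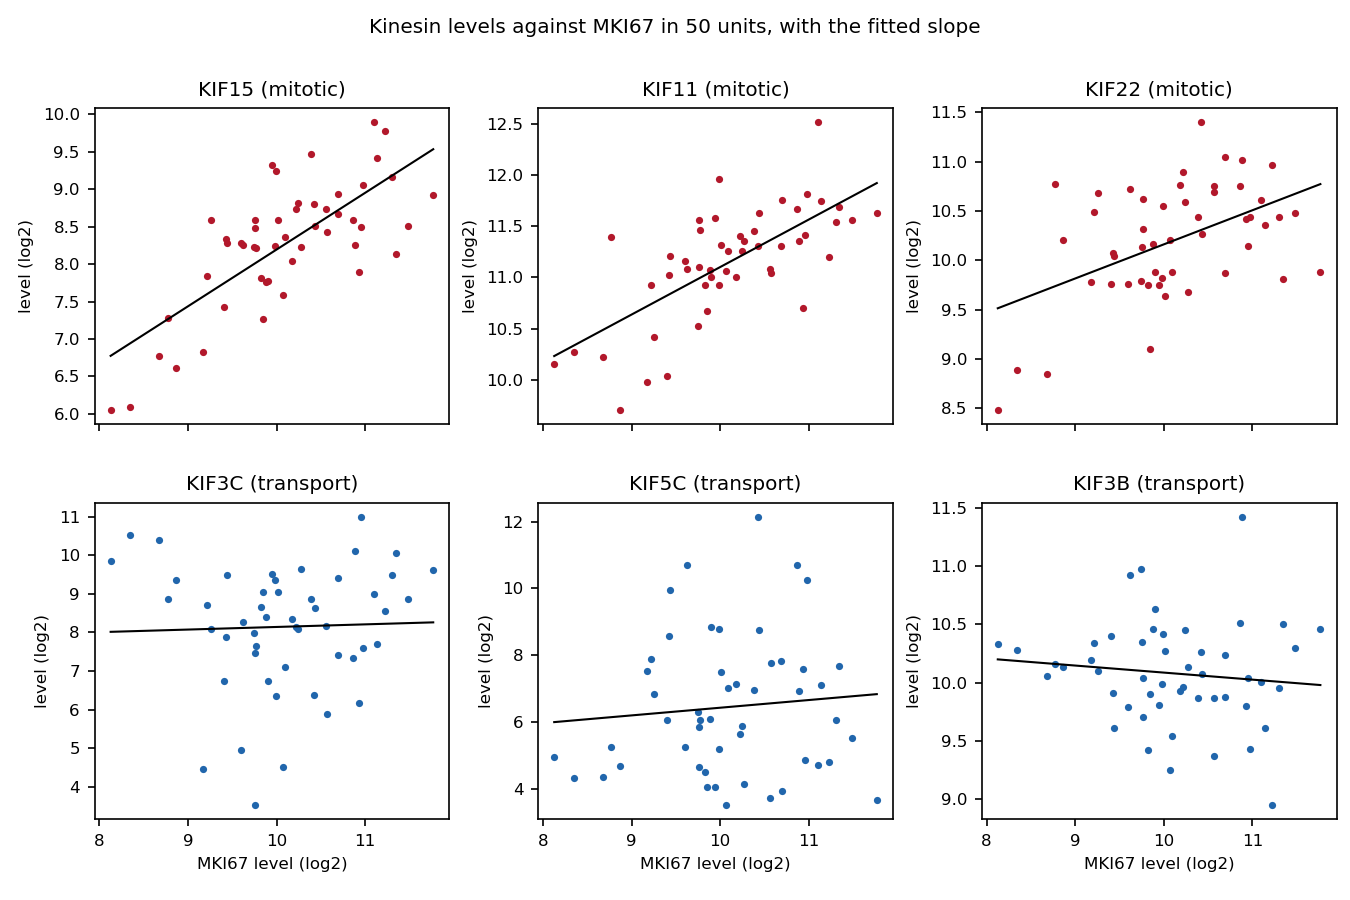
Level of 3 mitotic kinesins (upper row) and 3 transport kinesins (lower row) against MKI67 in 50 units, both in log2 intensity, with the fitted line. KIF15 and KIF11 climb with MKI67 over the whole range, KIF22 is low in the 3 units with the lowest MKI67, and KIF3C, KIF5C and KIF3B show slopes of 0.07, 0.23 and -0.06.

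The mitotic kinesins also followed one another. As a description over the same 50 units, which share their arrays and normalization, the 55 pairs of mitotic kinesins had a median Pearson r of 0.69, and 47 of them (85.5%) were over 0.5. Of all pairs of detected genes 0.905% were over 0.5, with a median r of 0.00. The closest pair was KIF14 with KIF18B at 0.85, and the loosest KIF18A with KIF22 at 0.28. The 66 pairs of transport kinesins had a median r of 0.02, and 1 pair was over 0.5. This was KIF1B, a carrier of mitochondria and synaptic vesicle precursors, with KIF3C, a kinesin-2 subunit, at 0.61. KIF1B with KIF16B, an early endosome motor, stood at the other end with -0.54. The 132 pairs of a mitotic and a transport kinesin had a median r of 0.05, from -0.29 to 0.40. KIF24, outside the mitotic list, had r of 0.59 with both KIF22 and KIF11. KIF16B and KIF12 had r of 0.61, and KIF1B and KIF21A -0.56.

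The transport kinesins that varied most were high and low in different lines. KIF1A, a neuronal carrier of synaptic vesicle precursors, was lowest in SUM149PT at 4.89, had a median of 5.81 and was highest in HCC1187 at 12.02. It was also high in HCC1143 at 11.29 and in MDAMB361 at 11.02, and it passed the array median in 39 lines. KIF5C, a conventional kinesin heavy chain of neurons, was lowest in EVSAT at 3.53, had a median of 6.19 and was highest in MDAMB453 at 12.12, with MFM223 next at 10.71 and ZR751 at 10.70. It passed the array median in 36 lines. The lines at the top of KIF1A and of KIF5C were thus different ones.

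KIF3C, the kinesin-2 subunit, had the opposite shape, present in most lines and very low in a few. Its median was 8.44, and its highest levels were 11.26 in M4A4, 10.85 in MDAMB435S and 10.84 in NM2C5, which share an origin. These lines had the melanocyte markers MLANA, PMEL, TYR, SOX10 and RAB38 at a mean of 5.42, 4.42 and 6.80 above their medians. PMEL alone was below its median in MDAMB435S, at 5.10 against 5.46. KIF3C was lowest in EFM192A at 3.06 and in EFM192C at 3.46. KIF5A, a neuronal kinesin heavy chain, ran from 5.10 in MDAMB231 over a median of 6.28 to 9.67 in FR2, followed by HS739T at 8.87. KIF16B ran from 7.01 in MDAMB157 over a median of 9.24 to 11.36 in ZR7530 and 11.30 in MDAMB361. In KIF5C, KIF1A and KIF3C the next probe set of the gene followed the chosen one with r of 0.99, 0.97 and 0.97 over the 58 lines. In KIF5A the next probe set had r of 0.93 but was above the array median in 2 lines.

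KIF5B, KIF3A, KIF3B and KIF1C, which most cell types use, varied less. KIF5B, the ubiquitous heavy chain, ran from 6.14 in MB157 over 8.03 to 9.35 in HCC70. KIF3A and KIF3B, the motor pair of intraflagellar transport, ran from 8.50 to 10.79 and from 8.95 to 11.42. KIF1C, a Golgi-linked carrier, had a median of 10.61 and was lowest in DU4475 at 8.19. KIF1B ran from 8.06 in EFM192C to 11.78 in HCC1187. Its second probe set by mean level had r of -0.02 with the first, while those of rank 3 and 4 had r of 0.87 each. The endosomal motors KIF13A and KIF13B were highest in HCC1806 at 8.75 and in MDAMB175VII at 10.23, against medians of 6.07 and 7.92.

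Among the other kinesins, several were marked by single lines. KIF21B, a motor of neurons and lymphocytes that limits microtubule growth, was lowest in HS605T at 3.19, had a median of 5.76 and was highest in DU4475 at 11.88, which exceeded the next line, CAL148, by 2.42. DU4475 was also highest in KIF26B at 9.50, against a median of 5.08. In DU4475 the neuroendocrine and neuronal markers SYP, SCG2 and CHGB were at 10.99, 10.11 and 8.55, against medians of 5.60, 3.67 and 4.73. INSM1 and ENO2 were at 6.10 and 11.52, against medians of 3.19 and 9.16. CHGA and STMN2 were at 4.77 and 4.51, against medians of 4.79 and 4.50. SCG2 was higher in CAL120 at 11.33, HS605T at 11.11, HS739T at 10.46 and BT549 at 10.23. The mean distance of the 6 detected markers of that list from their medians was 3.49 in DU4475, the highest of the lines, and its part in the kinesin levels was not tested. KIF6 was highest in MDAMB435S at 8.55, which exceeded the next line, HCC1143, by 2.42. Its second probe set was above the array median in 0 lines. KIF19 was at 7.40 in EFM192C and KIF25 at 8.17 in MB157, which exceeded all other lines by 2.12 and 1.54. The second probe set of KIF19 had r of 0.21 with the first and was above the array median in 0 lines.

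KIF26A and KIF7 were spread across the panel. KIF26A, a kinesin-like protein without motor activity, ran from 5.30 in HS605T over a median of 8.10 to 11.05 in OCUBF, with EVSAT at 10.81 and EFM192B at 10.76. KIF26B, its relative, was above the array median in 22 lines. KIF7 ran from 3.71 in SKBR3 over a median of 6.32 to 8.51 in HCC38, but its second probe set had r of -0.04 with the first. KIF12, a kinesin of epithelia of liver and kidney, stayed near its median of 6.33 in most lines and reached 10.17 in MDAMB361 and 9.85 in ZR7530. KIF9, a ciliary kinesin, ran from 6.52 to 8.85.

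Kinesins were also set against E-cadherin, the estrogen receptor and vimentin, which mark epithelial, luminal and mesenchymal identity. A mixture model split the units into clusters of 21 and 29 for CDH1, 21 and 29 for ESR1, and 26 and 24 for VIM. The cluster was a factor, and the slopes are those within clusters. The clusters were wide, so a slope within them does not hold identity fixed. The lower CDH1 cluster ran from 3.93 to 10.66 and the upper ESR1 cluster from 5.62 to 12.73. The lower VIM cluster ran from 2.63 to 12.12, and the upper one began at 12.41. In the CDH1 fit 1 of 34 kinesins passed the limma test, where 2.35% of all genes did, 1.22% with a positive and 1.13% with a negative slope, so the kinesins were called about as often as other genes. KIF21A, which restrains microtubule growth at the cell cortex, rose with CDH1 with a slope of 0.31 ± 0.08 (SE, adjusted p = 0.019). KIF21A was lowest in HS362T at 6.68, had a median of 10.76 and was highest in ZR751 at 11.67. The call was lost without the 4 lines HS362T, HS579MG, HS605T and HS739T (slope 0.18, adjusted p = 0.52) and with all 58 lines as units (adjusted p = 0.092).

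In the ESR1 fit 0 of 34 kinesins were called, where 0.833% of all genes were (0.594% with a positive and 0.239% with a negative slope), and 4 had an unadjusted p under 0.05 in limma. The smallest was that of KIF12, with a slope of 0.26 ± 0.07 (SE, adjusted p = 0.0629), followed by KIF1B with -0.20 (adjusted p = 0.104), KIF13B with 0.17 (adjusted p = 0.185) and KIF16B with 0.19 (adjusted p = 0.188). With the mean of all probe sets KIF16B was called at 0.37 (adjusted p = 0.0455) and KIF12 at 0.41 (adjusted p = 0.0335). In that setting ESR1 was itself averaged over its probe sets, and its clusters held 20 and 30 units. Those slopes are thus per unit of another ESR1 scale and cannot be compared in size with the main ones. KIF12 has 1 probe set, so its own level was the same in both settings. With 58 lines as units KIF12 was called at 0.22 (adjusted p = 0.0429) and KIF1B at -0.22 (adjusted p = 0.0217). The VIM fit was added after the data were seen. In it 0 of 34 kinesins were called, where 0.478% of all genes were (0.287% with a positive and 0.191% with a negative slope), and 7 had an unadjusted p under 0.05 in limma. KIF12 had -0.18 (adjusted p = 0.0927) and KIF16B -0.18 (adjusted p = 0.0931), while KIF1B had 0.13 (adjusted p = 0.176) and KIF3C 0.25 (adjusted p = 0.199). KIF12 was called at -0.19 with 58 lines as units (adjusted p = 0.0323) and at -0.22 without the MDAMB435 set and MT3 (adjusted p = 0.0447).

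Lines of common origin allowed mitotic and transport members to be compared between lines reported to share a source. A fit of the 14 lines of these sets on MKI67 with the set as a block, added after the data were seen, called 9 of 11 mitotic kinesins up and 0 of 12 transport kinesins, with 327 genes called in all. KIF15 (slope 0.73, adjusted p = 0.0695 in limma) and KIF22 (0.18, adjusted p = 0.498) were not called, nor was KIF24 (adjusted p = 0.228). Single pairs have 1 array a line and hence no test. VP267 was above VP229 in 11 of 11 mitotic kinesins, by a median of 2.31, while MKI67 was at 11.33 in VP267 and 7.48 in VP229. KIF14 was at 10.46 in VP267, against 7.21 in VP229. The transport kinesins differed by a median of -0.34 and in both directions, since KIF3C was at 8.78 in VP267 and 4.69 in VP229, and KIF1A at 5.20 in VP267 and 8.91 in VP229. The array width was 0.52 for VP267 and 0.62 for VP229, and the fibroblast mean -0.50 for VP267 and -0.56 for VP229.

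EFM192B and EFM192C were each above EFM192A in 11 of 11 mitotic kinesins, by medians of 1.29 and 1.16. KIF15 was at 7.42 in EFM192B and 7.92 in EFM192C, against 5.13 in EFM192A, and MKI67 at 9.57 and 9.82, against 8.14. KIF1A was at 9.79 in EFM192B and 8.36 in EFM192C, against 5.77 in EFM192A, and KIF26A at 10.76 and 10.08, against 6.62. EFM192C and EFM192B differed little in mitotic kinesins, by a median of 0.06, but KIF3C was at 3.46 in EFM192C and 6.85 in EFM192B. The array width was 0.53 for EFM192B and 0.59 for EFM192C, against 0.63 for EFM192A. The mean of the 6 fibroblast markers above their medians was -0.07 in EFM192B and -0.30 in EFM192C, against 2.92 in EFM192A, and its part in the kinesin levels was not tested. MDAMB157 was above MB157, also a wide array, in 10 of 11 mitotic kinesins by a median of 0.66. These 2 lines differed widely in identity markers, with CDH1 at 6.23 in MDAMB157 and 12.77 in MB157, and the fibroblast mean at 6.22 in MDAMB157 and 1.30 in MB157.

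In the other sets mitotic kinesins differed by medians near 0. The medians were -0.17 for M4A4 minus MDAMB435S, -0.15 for NM2C5 minus MDAMB435S, -0.11 for HMT3522T42 minus HMT3522S1 and 0.07 for AU565 minus SKBR3. Single other kinesins differed more. KIF6 was at 4.58 in M4A4 and 5.54 in NM2C5, against 8.55 in MDAMB435S, and KIF26A was at 9.88 in HMT3522T42, against 6.95 in HMT3522S1. Set against the spread within these sets, the SD between units was 2.93 times as large for KIF5A and 2.77 times for KIF21B. It was lowest for KIF6 at 0.43 times and KIF25 at 0.61 times. The mitotic members lay on both sides of 1. KIF23 had 0.70, KIF14 0.74 and KIF4A 0.86, while KIF22 had 1.53, KIF18A 1.51 and KIF11 1.26. The median over all detected genes was 1.60.

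**Figure D5:**
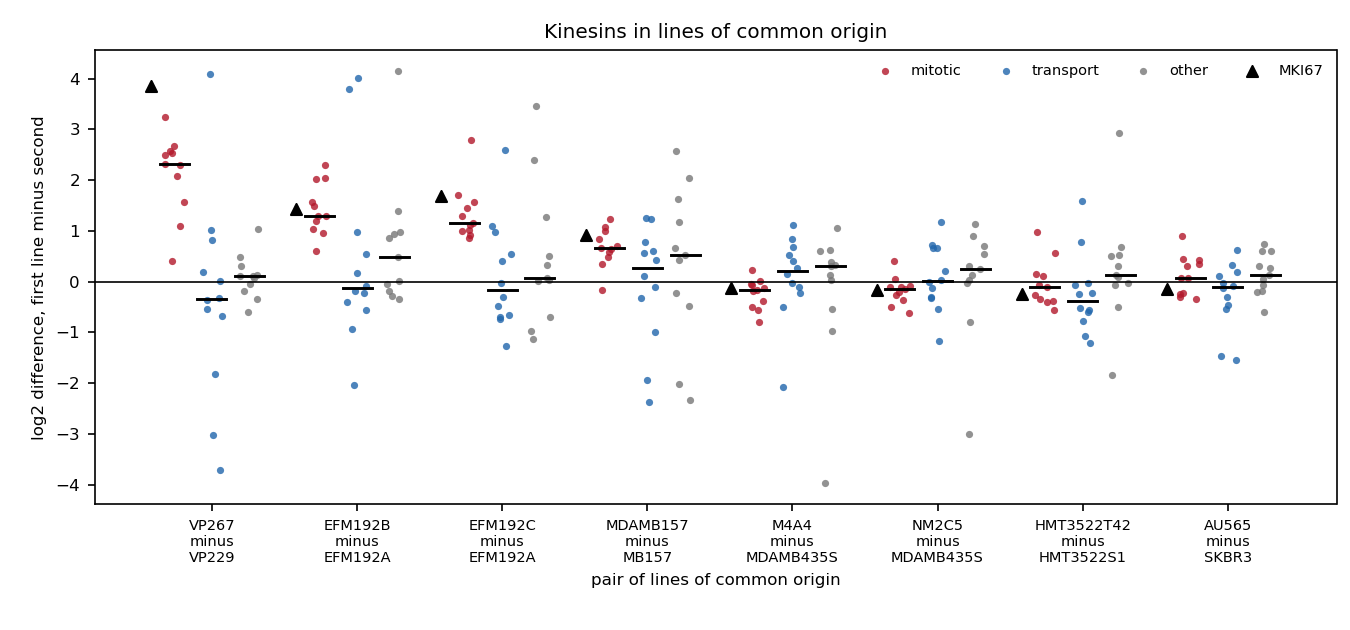
Log2 difference of each detected kinesin between 2 lines of common origin, first line minus second, with bars at the median of each role and a triangle for MKI67. The mitotic medians are 2.31 for VP267 minus VP229 and 1.29 and 1.16 for EFM192B and EFM192C minus EFM192A, and lie within 0.17 of 0 in the 4 pairs at the right.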

How the data were processed

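Messenger RNA of 58 lines was measured on custom Affymetrix arrays. The deposited values are log2 intensities made by the authors with RMA in Affymetrix Power Tools, per the submitters' processing notes, without versions. Whether the arrays were normalized together, and the genome build of the probe sets, are not given in the sources used here. Of 52377 probe sets, 35184 named 1 gene, 374 several and 16819 none. Each gene was taken from its probe set with the highest mean, for 24 of the kinesins out of several. All 38 symbols were the same in RefSeq.

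Slopes were fitted with limma 3.58.1 (R 4.3.3, eBayes with trend and robust) over 50 units and 14650 genes, at an adjusted p under 0.05. A term was split into clusters, used as a factor, where a mixture model of 2 components (mclust 6.1.1) gained more than 10 in BIC over 1 component, Ashman's D exceeded 2 and each cluster held 3 or more units. P-values measure the spread between lines. On simulated data the MKI67 fit recovered 64 of 100 planted slopes of 0.5 and 24 of 100 of 0.25, with 9 unchanged genes called. The CDH1, ESR1 and VIM fits recovered 81, 85 and 90 at 0.5.

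The members, lists and tests were chosen with earlier results of these data known. Named in full were the 5 mitotic, 5 transport and 4 other kinesins with the largest SD, every called kinesin, every kinesin that exceeded all other lines by at least 1.5, and of the partner lists the 3 genes with the smallest adjusted p in each direction. Levels of remaining members were added after their values were seen. Alternatives were other probe set summaries, normalization, filters, units, lines left out, array quality as a term, another eBayes setting and TOP2A as the term. The VIM fit, each unit left out in turn, the 3 widest arrays left out and the sets of common origin as a block were chosen after seeing the data. The number of arrays limits the precision.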

Additional observations from a re-analysis of the deposited data

How the results depend on the processing

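The slopes of those kinesins that were called in any setting were compared 216 times with an alternative, of which 12 lost their call, 6 gained one and 0 reversed. Slopes called in neither setting were among those compared, and the fits with each unit left out in turn were not. On MKI67, 9 of 11 mitotic kinesins were called without the lines HS362T, HS579MG, HS605T and HS739T and 9 among the 14 lines of common origin with their set as a block. It was 10 without the 2 units farthest from the median (HS362T and HCC1806), with TOP2A as the term, without the 3 widest arrays, and on leaving out HS362T or HS605T alone, and 11 under the other alternatives run. Over all genes, 854 were called on MKI67, against 1488 with 58 lines as units, 126 without those 4 lines, 362 without the 2 farthest units, 360 with array quality as a term, 409 with TOP2A, 327 with the block and 381 without the 3 widest arrays. Leaving out each unit in turn gave 424 (without HS362T) to 976 (without HS579MG). Other kinesins called up fell to 0 without the 4 lines, with TOP2A and with the block.

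On CDH1, 345 genes were called, against 217 with the stricter filter, 65 with 58 lines, 170 without the MDAMB435 set and MT3, 8 without the 4 lines, 141 without the 2 farthest units (HS362T and MDAMB436) and 92 without the 3 widest arrays. Other kinesins called up were 0 with 58 lines and without the 4 lines. On ESR1, 122 genes were called, against 42 with the stricter filter, 413 with 58 lines, 74 without the 4 lines and 15 without the 2 farthest units (T47D and ZR751). The mean of probe sets gave 1 transport and 1 other kinesin up, and 58 lines gave 1 transport kinesin down and 1 other up. On VIM, 70 genes were called, against 123 with 58 lines and 42 without the 2 farthest units (EVSAT and MT3), and 1 other kinesin was called down with 58 lines and without the MDAMB435 set and MT3. The causes were not tested.

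The kinesins with an SD of at least 1 numbered 8, against 9 over units, 7 with the mean of probe sets and 8 after a second normalization. With the mean of probe sets the SD of KIF13A was 0.49, against 0.89, that of KIF5A 0.51, against 0.96, and that of KIF7 0.63, against 1.25.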

Other observations

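HCC1187, the line with the highest KIF1A and KIF1B, had the lowest KIF3A of the 58 lines, at 8.50 against a median of 9.99. It also had the lowest IFT27, a subunit of the intraflagellar transport train that kinesin-2 carries, at 3.36 against a median of 10.22, and COLO824 was next at 4.69. The mean distance of the 12 intraflagellar transport genes from their medians was -1.20 in HCC1187. IFT27 and IFT57, at 6.94 against a median of 10.42, made up most of it. IFT172 and IFT122 were above their medians, at 8.69 and 9.46 against 7.38 and 8.46, and the remaining members were below theirs. KIF3B, the motor partner of KIF3A, was at 9.87 in HCC1187, against a median of 10.06. KIFAP3, the adaptor that ties kinesin-2 to its cargo, was at 10.66 in HCC1187, against a median of 9.77.

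MKI67 and the mitotic kinesins did not rank every line alike. T47D held place 27 from the lowest of 58 lines for MKI67, at 9.99, and place 49 for the mean of the mitotic kinesins, at 0.40 above their medians. BT20 held place 10 for MKI67, at 9.26, and place 40 for the mitotic kinesins, at 0.24. MCF102A held place 21 for MKI67, at 9.85, and place 8 for the mitotic kinesins, at -0.99. These lines were chosen after their values were seen, and with 1 array a line the differences have no test.

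KIFC3, a minus-end motor outside the naming rule, ran from 4.71 in MFM223 over a median of 7.84 to 10.25 in MDAMB435S.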
